A study of Arabidopsis thaliana with 4 samples.

Results

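SWEET proteins are membrane carriers that let sugars pass down their concentration gradient, in either direction and without a proton pump behind them. In plants they fall into 4 clades: members of clades I and II mainly carry hexoses such as glucose, members of clade III export sucrose, and members of clade IV sit in the tonoplast, the membrane of the vacuole, and move fructose and other sugars between vacuole and cytosol. The genes described here are the Arabidopsis thaliana members of clades I, II and IV, that is SWEET1 to SWEET8, SWEET16 and SWEET17. They were taken by gene symbol, with earlier results of these data known. Of the 10 symbols, 9 are given to a single probe set by the platform's annotation, out of 22746 probe sets tested in all. The tenth gene, SWEET5, has its probe set listed under its other name, AtVEX1, which RefSeq's gene table gives as a synonym. It is described beside the 9 and is left out of their counts unless it is named.

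The series holds 4 Affymetrix ATH1 arrays. Each transcript is read by a probe set, a group of short oligonucleotides whose brightness is summed up as 1 signal on a linear scale. There were 2 arrays of ago4-1 plants, which carry a mutant allele of AGO4, and 2 arrays of wild-type plants, named La-er in the labels. Both genotypes were whole plants, 5 weeks old, grown in hydroponics with 16 h of light, and no further treatment is named for either. Arrays of 1 genotype are titled as biological replicates, but how many plants went into each RNA sample is not given in the sources used here. AGO4 is the Argonaute protein that uses small interfering RNAs to direct DNA methylation, and the submitters tie the comparison to its part in plant development. AGO4 itself is not analysed here: the annotation used pairs no probe set with it, so the mutant label was not checked on these arrays.

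The median signal was 151.0 and 164.0 in ago4-1 against 162.1 and 165.1 in wild type, the lowest being that of ago4-1 replicate 1. Centring the arrays on their medians moved every log2 difference, ago4-1 minus wild type, up by 0.05. The GAPDH control gives a 3'/5' ratio, a sign of RNA quality, which was 1.41 and 1.74 in ago4-1 and 1.56 and 2.05 in wild type. For actin the same ratio was 8.78 and 7.99 in ago4-1 and 8.25 and 11.3 in wild type, and the genotypes overlapped for both controls. A higher ratio means a weaker signal from the 5' end, and actin's was far above that of GAPDH on every array. No limit was set for either control, so the RNA is not shown to be of good quality. Leaf transcripts were bright on all arrays. RCA, the activase of Rubisco, averaged 29221 ± 754 in ago4-1 and 30846 ± 267 in wild type (SD, n = 2 each). LHCB4.1, the other leaf marker with a probe set, averaged 30450 ± 1089 in ago4-1 and 31486 ± 398 in wild type. The root markers were uneven between replicates. PYK10, a root beta-glucosidase, was at 351 and 137 in ago4-1 and at 290.5 and 114 in wild type. EXPA18, a root hair expansin, was at 49.5 and 6.13 in ago4-1 and at 98.1 and 76.9 in wild type. None of the markers listed for floral organs or seeds was paired with a probe set, so those parts of the plant were not checked. Whole plants mix many cell types, so fewer cells of a type and less RNA per cell cannot be told apart in any value below.

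None of the 9 transporters passed the test between ago4-1 and wild-type plants. In limma's moderated test on log2(signal + 16), with Benjamini-Hochberg adjustment over the 22746 probe sets, 0 of 9 passed an adjusted p of 0.05, and the lowest adjusted p was 0.163. Over all probe sets 0.615% passed (140, of which 91 were higher and 49 lower in ago4-1). At an unadjusted p under 0.05 there were 2 of the 9, SWEET8 and SWEET17, against 15.7% of all probe sets. The 9 differences, ago4-1 minus wild type, ran from -0.63 to 0.71 on the log2 scale with a median of 0.05, while the median over all probe sets was -0.03. Both ago4-1 arrays lay above both wild-type arrays for 2 of the 9 (21.7% of all probe sets) and below them for 1 (25.4% of all probe sets). The other 6 overlapped. Separation of the genotypes was thus seen for 3 of the 9, against 47.1% of all probe sets, a share that is not above the background. With a filter at the 30th percentile of mean signal, under which 4.06% of all probe sets passed, 0 of the 9 passed as well.

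**Figure D1:**
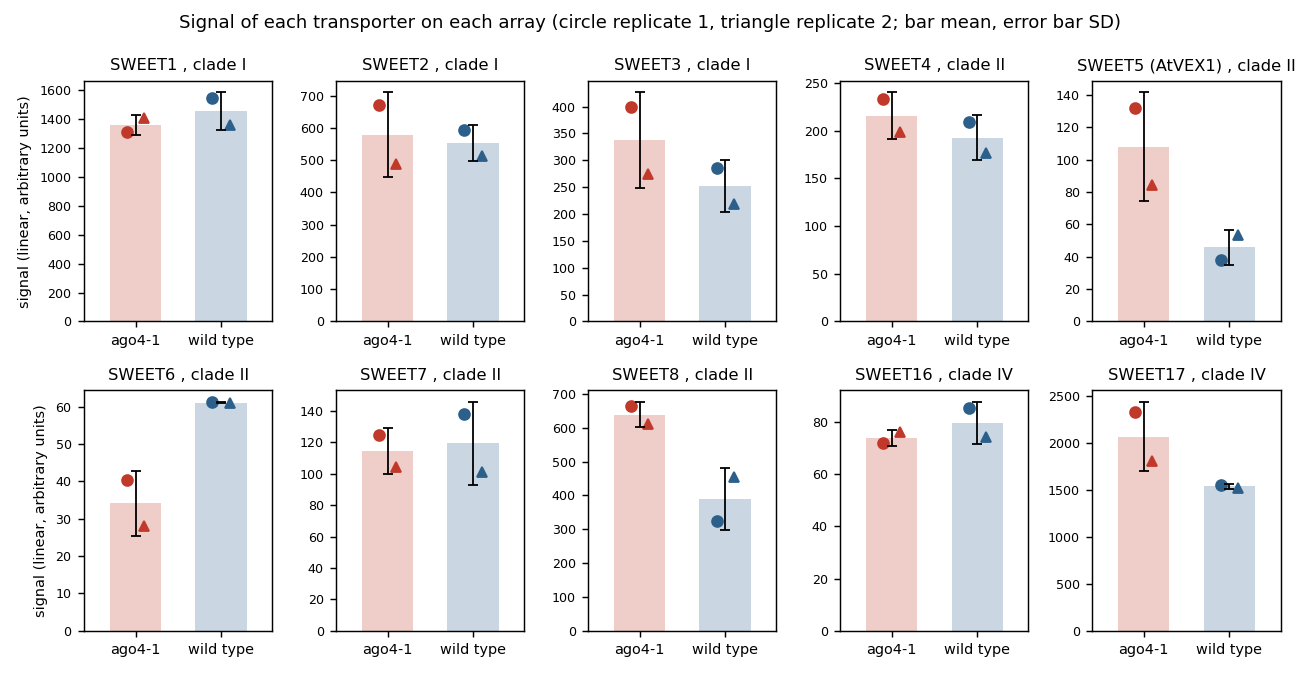
Signal of each transporter on each array, with a linear axis from 0 in every panel. Red marks ago4-1 and blue marks wild type, circles and triangles are replicates 1 and 2, bars are means and error bars are SD (n = 2). The ago4-1 points lie clear of the wild-type points for SWEET5, SWEET8 and SWEET17, where they are higher, and for SWEET6, where they are lower.

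Clade I holds the best known glucose carriers of the family, and its 3 members overlapped between the genotypes. SWEET1 (AT1G21460), a glucose carrier of the plasma membrane, was at 1308 and 1406 in ago4-1 and at 1544 and 1358 in wild type. The higher ago4-1 array lay between the wild-type arrays, and the log2 difference was -0.09 with a 95% interval from -0.38 to 0.20 (limma adjusted p = 0.76). That interval was the narrowest of the 10 genes described. The difference was -0.0024 without wild type replicate 1 and -0.19 without wild type replicate 2.

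SWEET2 (AT3G14770), a tonoplast glucose carrier known from roots, where it limits the loss of sugar to the surroundings, was at 671 and 487 in ago4-1 and at 592 and 514 in wild type. The ago4-1 arrays stood on both sides of the wild-type pair. The replicate arrays of ago4-1 were 0.45 log2 units apart, more than the difference between genotypes of 0.05 (interval -0.41 to 0.51, limma adjusted p = 0.932). Its sign turned to -0.18 without ago4-1 replicate 1 and to -0.05 without wild type replicate 2, so the arrays give it no direction.

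SWEET3 (AT5G53190) was at 400.2 and 274 in ago4-1 and at 286 and 218 in wild type. One ago4-1 array was the highest of the 4, and the other fell between the wild-type arrays. Its log2 difference of 0.39 (interval -0.22 to 0.99, limma adjusted p = 0.521) was smaller than the gap of 0.52 between the ago4-1 arrays. Leaving out ago4-1 replicate 1 gave 0.12, and leaving out ago4-1 replicate 2 gave 0.65.

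Clade II showed the widest range, and it includes the genes of this group that are known from anthers and pollen. SWEET8 (AT5G40260), also called RPG1, is a glucose carrier needed for the wall of the pollen grain, and plants that lack it lose much of their pollen. Its signal was 665 and 612 in ago4-1, against 325 and 453 in wild type. Both ago4-1 arrays were above both wild-type arrays, and the pair in wild type was the more spread, by 0.46 log2 units against 0.12 in ago4-1. The mean was 639 ± 37.6 in ago4-1 and 389 ± 90.5 in wild type (SD, n = 2 each), a fold of 1.63 on the signal + 16 scale. That log2 difference of 0.71 (SE 0.19, interval 0.24 to 1.17) had the lowest p of the 9, 0.00954 unadjusted, and an adjusted p of 0.163 in limma's test, so it did not pass. Between single arrays of the 2 genotypes the difference ran from 0.42 to 1.00.

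SWEET5 (AT5G62850), listed as AtVEX1 and named for its expression in the vegetative cell of the pollen grain, had low signals. It was at 132 and 84.1 in ago4-1 and at 38.2 and 53.3 in wild type. The genotypes did not overlap, though the ago4-1 arrays differed from each other by 0.56 log2 units. The log2 difference was 0.99 (SE 0.37, interval 0.09 to 1.89), the highest of the 10 genes, with an unadjusted p of 0.0357 and a limma adjusted p of 0.276. It depended on the constant added before taking logs, at 1.21 with 1 and 0.64 with 64.

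SWEET5 and SWEET8 did not pass the test, while 4 of the 5 late-pollen markers with a probe set did. Of 12 late-pollen loci listed, 5 had a probe set, and their summed signal was 1248 and 1168 in ago4-1 against 64.6 and 54.4 in wild type. All 5 were higher on both ago4-1 arrays, and 4 of them passed limma's adjusted threshold of 0.05. Over all probe sets 0.4% passed as higher and 0.215% as lower in ago4-1. AT1G10770, a locus of that list, averaged 342 ± 7.32 in ago4-1 and 6.23 ± 1.53 in wild type (SD, n = 2 each), and AT3G07820 averaged 345 ± 20.2 in ago4-1 and 17.4 ± 0.580 in wild type. AT5G48140, which did not pass, was at 88.5 and 61.8 in ago4-1 and at 36.3 and 25.2 in wild type. Its log2 difference was 0.96 (limma adjusted p = 0.295). None of the 5 was listed at 0 on any array, the lowest signal being 1.53, but no detection calls were used. On both wild-type arrays AT1G10770 lay below the added constant of 16 and AT3G07820 just above it. The constant thus shapes the size of their log2 differences. These loci were listed with earlier results of these arrays known and are not independent evidence.

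The tapetum, the layer of the anther that feeds developing pollen, was covered by 2 of 13 listed genes. AT5G07230 was at 2250 and 1690 in ago4-1 and at 1044 and 1196 in wild type (log2 difference 0.79, limma adjusted p = 0.108). AMS, a regulator of tapetum development, was at 33.0 and 69.7 in ago4-1 and at 65.5 and 69.2 in wild type, a log2 difference of -0.36 with overlapping arrays. The part of pollen or anther RNA in the values of SWEET5 and SWEET8 was not tested.

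The remaining clade II genes gave no separation upward. SWEET4 (AT3G28007), a carrier of glucose and fructose known from veins, was at 233 and 198 in ago4-1 and at 209 and 176 in wild type, a log2 difference of 0.15 (interval -0.40 to 0.70, limma adjusted p = 0.799). The arrays of the genotypes overlapped, and the difference was 0.04 without ago4-1 replicate 1 or without wild type replicate 2. SWEET7 (AT4G10850) was at 124.5 and 103.9 in ago4-1 and at 137.9 and 100.7 in wild type, and the wild-type arrays enclosed both ago4-1 arrays. Its difference of -0.05 (interval -0.78 to 0.68) turned above 0 when either ago4-1 replicate 2 or wild type replicate 1 was left out, at 0.07 and 0.15, and it was 0.0048 with arrays centred on their medians.

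SWEET6 (AT1G66770) was the single gene of the 10 with both ago4-1 arrays below both wild-type arrays. It was at 40.3 and 28.0 in ago4-1 and at 61.2 and 60.9 in wild type, where the replicates nearly coincided. The mean was 34.1 ± 8.67 in ago4-1 and 61.0 ± 0.197 in wild type (SD, n = 2 each). The log2 difference of -0.63 had an interval from -1.49 to 0.22 and a limma adjusted p of 0.452. Such low signals carry a wide error in the fit, which takes the spread of probe sets of similar signal into account, and the value moved to -0.84 with 1 added before logs and to -0.35 with 64. SWEET6 lay just above a filter at the 30th percentile of mean signal, at the 30.5th percentile, and all 9 genes, with SWEET5, passed that filter.

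Clade IV, the vacuolar branch, has 2 members, both with a probe set. SWEET17 (AT4G15920) is a fructose carrier of the tonoplast, known for setting fructose content in leaves and for its expression in roots. It was at 2327 and 1806 in ago4-1, against 1554 and 1516 in wild type. Both ago4-1 arrays were above the close wild-type pair, which were 0.04 log2 units apart, but the ago4-1 arrays were 0.36 units apart. The mean was 2066 ± 368 in ago4-1 and 1535 ± 26.7 in wild type (SD, n = 2 each), a fold of 1.33 on the signal + 16 scale. The log2 difference was 0.41 (SE 0.14, interval 0.06 to 0.76), with an unadjusted p of 0.0275 and a limma adjusted p of 0.248. It rested in part on ago4-1 replicate 1, being 0.23 without that array and 0.60 without ago4-1 replicate 2.

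SWEET16 (AT3G16690), a tonoplast carrier of glucose, fructose and sucrose, was at 71.8 and 76.0 in ago4-1 and at 85.4 and 74.1 in wild type. The ago4-1 arrays were close together and overlapped with wild type, and the log2 difference was -0.09 (interval -0.86 to 0.68, limma adjusted p = 0.926). It was -0.0037 without wild type replicate 1 and -0.17 without wild type replicate 2. Whether SWEET16 and SWEET17 differ in their response was not tested, and their intervals overlap.

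**Figure D2:**
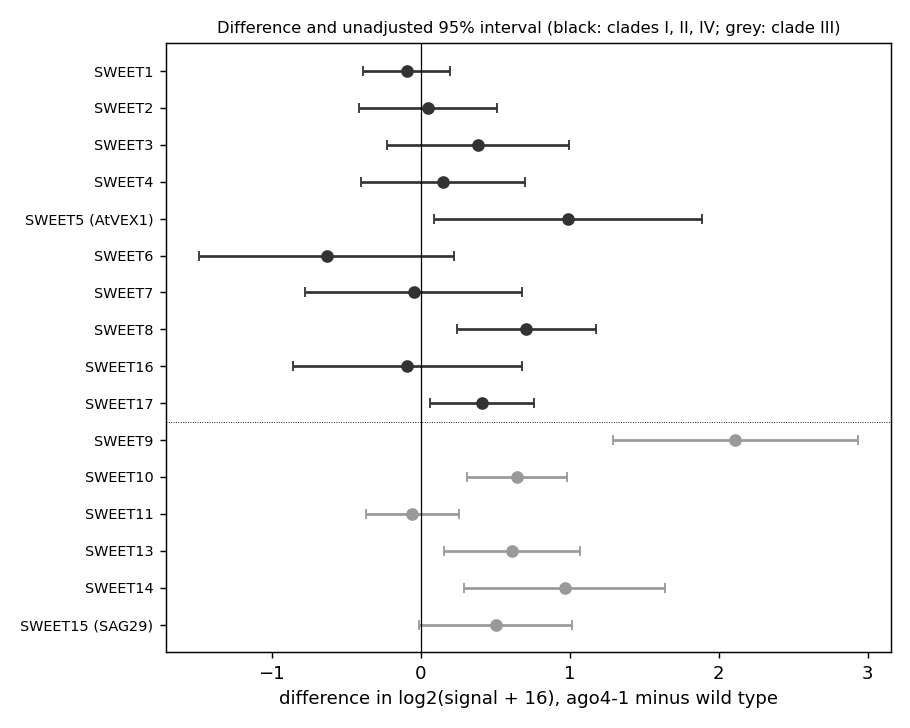
Difference in log2(signal + 16), ago4-1 minus wild type, for the genes of clades I, II and IV (black) and of clade III (grey), with unadjusted 95% intervals from limma's fit. The intervals of SWEET5, SWEET8 and SWEET17 lie above 0, and those of the other 7 black points include it.

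The intervals show what these arrays could and could not tell. For SWEET1, SWEET2, SWEET4, SWEET7 and SWEET16 the unadjusted 95% intervals included 0 and ended below 1 log2 unit in both directions. The interval of SWEET3 reached up to 0.99, and that of SWEET6 reached down to -1.49, so a 2-fold decrease of SWEET6 lies inside it. For SWEET5 and SWEET8 the interval included 1 log2 unit. Within a genotype, the replicate 1 array was the higher for 8 of the 10 genes in ago4-1 and for 8 of the 10 in wild type, while over all probe sets it was the higher for 47.8% in ago4-1 and 51.1% in wild type.

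**Figure D3:**
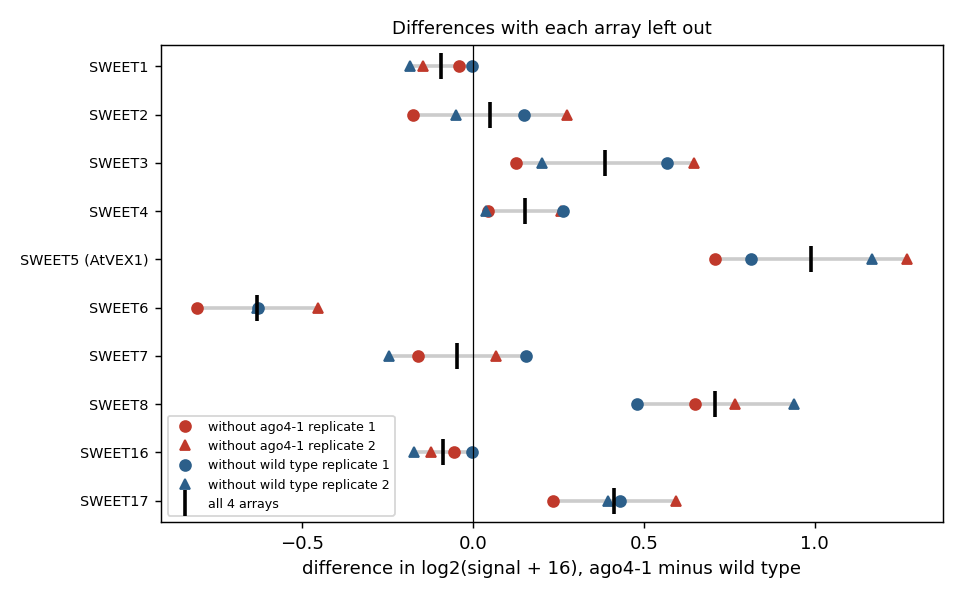
Difference in log2(signal + 16), ago4-1 minus wild type, with each array left out in turn (red, an ago4-1 array; blue, a wild-type array) and with all 4 arrays (black bar). The points of SWEET3, SWEET4, SWEET5, SWEET8 and SWEET17 stay above 0 and those of SWEET6 below it. Those of SWEET1 and SWEET16 reach almost to 0 from below, at -0.0024 and -0.0037, and those of SWEET2 and SWEET7 fall on both sides.

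The sucrose exporters of clade III stood higher in ago4-1 in more of their members, by description only. Of its 7 genes 6 had a probe set, 5 of them with both ago4-1 arrays above both wild-type arrays (21.7% of all probe sets), with a median difference of 0.63 against 0.05 for the 9 genes of the other clades. SWEET9, which secretes sucrose in nectaries, was at 185 and 223 in ago4-1 and at 26.6 and 44.3 in wild type, with a limma adjusted p of 0.0678. SWEET10 was at 859 and 812 in ago4-1 and at 492 and 565 in wild type (adjusted p = 0.112), and SWEET14 at 167 and 219 in ago4-1 and at 94.8 and 85.8 in wild type (adjusted p = 0.18). SWEET11 went the other way, at 5948 and 6173 in ago4-1 and at 6950 and 5714 in wild type, with overlapping arrays and a log2 difference of -0.06. In the fit without a low-signal filter 0 of the 6 passed, and 4 had an unadjusted p under 0.05, against 15.7% of all probe sets. The clades were not tested against each other.

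The other genes of sugar transport and sucrose turnover give the setting for these carriers. Counting clade III, 19 of 64 listed genes had a probe set, 0 passed limma's adjusted threshold, 6 had an unadjusted p under 0.05 (15.7% of all probe sets), and the median difference was 0.17. Of those 6, 4 are the clade III genes just counted. Of 14 listed genes for proton-coupled monosaccharide carriers 4 had a probe set, with a median of 0.03. The lowest p among them was that of AT5G26250, at 24.3 and 24.4 in ago4-1 and at 11.5 and 7.46 in wild type. AT1G34580 had a log2 difference of -0.31 and AT3G19940 one of 0.20. No probe set was paired with the 9 listed sucrose carriers or the 3 hexokinases.

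Several carriers share the tonoplast with SWEET2, SWEET16 and SWEET17. TMT1 and TMT2 load hexoses into the vacuole against protons, the opposite direction to release through a SWEET. TMT1 was at 253 and 380 in ago4-1 and at 447 and 411 in wild type, a log2 difference of -0.45 (limma adjusted p = 0.403). TMT2 was at 358 and 355 in ago4-1 and at 473 and 404 in wild type, a difference of -0.28 (adjusted p = 0.464). Both were lower on both ago4-1 arrays and neither passed. Over the 6 vacuolar and plastid carriers with a probe set the median was -0.03, and AT5G17010 stood at 0.24. Both ago4-1 arrays were below both wild-type arrays for 2 of the 6 and above them for 0, where the shares over all probe sets were 25.4% and 21.7%, so the 2 are near the background.

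Among enzymes that make or split sucrose, ATSPS4F, a sucrose-phosphate synthase, was at 748 and 775 in ago4-1 and at 1143 and 994 in wild type. Its difference of -0.48 had an unadjusted p of 0.00896 and a limma adjusted p of 0.16, and it was the single probe set paired among 10 listed synthases. Of 8 listed invertases 2 had a probe set. AT1G62660 was at 409.9 and 391 in ago4-1 and at 575 and 487 in wild type, a difference of -0.39 (adjusted p = 0.309). For cwINV6, which RefSeq's table also names a fructan exohydrolase, ago4-1 replicate 2 stood far above the other arrays, at 66 and 434 in ago4-1 and at 63.4 and 126 in wild type.

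**Figure D4:**
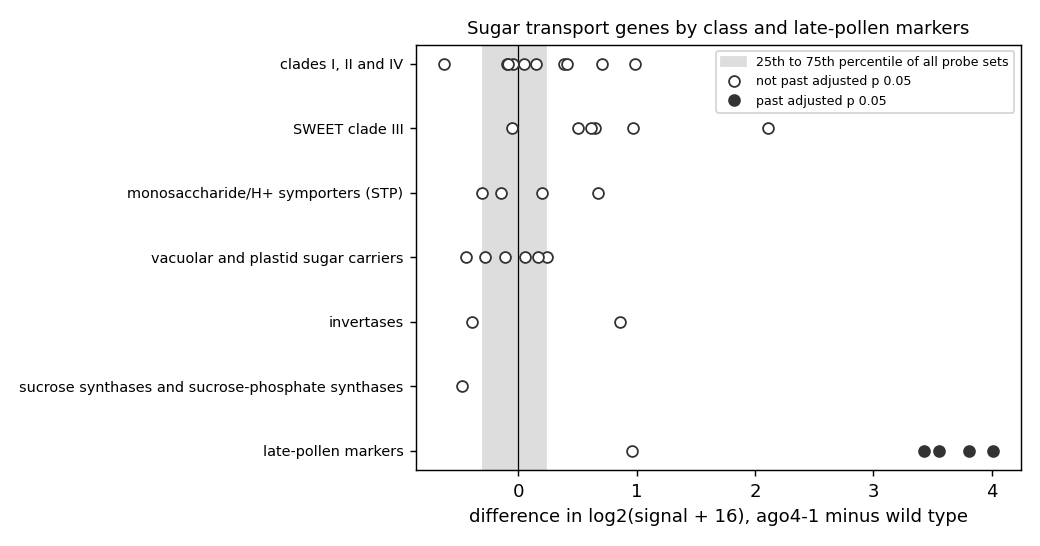
Difference in log2(signal + 16), ago4-1 minus wild type, for each gene with a probe set, by class, with late-pollen markers at the bottom. Filled points passed an adjusted p of 0.05 in limma's test, open points did not, and the grey band spans the 25th to 75th percentile of all probe sets, from -0.30 to 0.24. The 4 filled points are all late-pollen markers.

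The senescence marker SAG101 was at 122 and 161 in ago4-1 and at 166 and 136 in wild type, with overlapping arrays. The 3 root markers with a probe set, of 4 listed, did not move one way. EXPA18 was lower on both ago4-1 arrays (log2 difference -1.44, limma adjusted p = 0.299), while PYK10 stood at 0.25 and EXPA7, another root hair expansin, at 0.20, both with overlapping arrays. Their summed signal was 409.7 and 181 in ago4-1 and 396 and 219 in wild type. SWEET2 and SWEET17 are both known from roots, and the share of root RNA in their values was not tested.

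Genes lying beside the transporters in the annotation were counted as well. Of the 200 genes within 10 places on either side of the 10 loci 87 had a probe set. Of these 0 passed limma's adjusted threshold and 10 had an unadjusted p under 0.05, or 11.5% against 15.7% of all probe sets. The neighbours of SWEET16 held the most of these, with 4 of 10 at an unadjusted p under 0.05, 5 of 10 lower on both ago4-1 arrays (25.4% of all probe sets) and a median difference of -0.35. Those of SWEET7 followed, with 3 of 11 and a median of 0.02. Beside SWEET6, which lies on a stretch of chromosome 1, 10 neighbours had a probe set, 0 passed, 1 had an unadjusted p under 0.05, and their median difference was 0.18, while SWEET6 itself stood at -0.63. Beside SWEET4, on chromosome 3, 5 neighbours had a probe set, with 0 passing, 0 at an unadjusted p under 0.05 and a median of 0.11.

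SWEET8 had the lowest p of the 9, and the probe sets most like it over the 4 arrays were found by the distance between log2(signal + 16) values centred on each gene's mean. Among 13512 other probe sets with 1 gene name the nearest were AT4G05630 at a distance of 0.08, AT2G07707 at 0.08 and AT2G21850 at 0.09, where the median distance was 0.95. AT2G07707 was at 609 and 540.1 in ago4-1 and at 286 and 381 in wild type. AT4G05630 was low, at 20.0 and 17.2 in ago4-1 and at 0.984 and 7.78 in wild type, so the constant of 16 shapes its pattern. With 4 arrays such closeness is a description of these samples only.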

How the data were processed

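Trizol-extracted total RNA of whole plants was biotin-labelled for ATH1 arrays, per the labels' protocols. Per the submitters' processing notes the authors used GCOS, whose settings are not stated in the sources used here. The deposited file holds a linear intensity for every probe set of each array. The trimmed mean was 500.1 on each array, so no further normalization was applied. No pair of arrays was identical (0 pairs). No detection calls were used, and 4 arrays limit the precision. Signals of different probe sets were ranked or summed for the filters, the percentiles and the marker sums, but no test compared their levels.

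Of 22810 probe sets, 64 controls were left out. The platform's annotation gave 1 gene symbol to 13513, several to 503 and none to 8730. Of the 13513, 13436 matched RefSeq's table of TAIR10.1 by gene ID, used for names and gene order alone.

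Values were taken as log2(signal + 16) and the genotypes compared by two-sided moderated tests (limma 3.58.1, R 4.3.3; eBayes with its trend option) and Benjamini-Hochberg adjustment over 22746 probe sets at a threshold of 0.05. No low-signal filter was used, so that each gene entered whichever genotype was higher. Residual degrees of freedom were 2, and prior ones had a median of 4.2. Intervals are unadjusted 95% intervals. The procedure was tested on simulated data. For loci with several probe sets the brightest was used.

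The genes and lists were chosen with earlier results of these data known. Named were every transporter, up to 3 genes of each sugar list and 2 of each marker list with the smallest p, and the 3 nearest patterns. EXPA7, SWEET11 and AT5G48140 fall outside this rule and were named after their values were seen. Alternatives were filters at the 30th and 50th percentiles, quantile normalization, centred arrays, constants of 1 and 64, no variance trend, robust moderation, a replicate block, and omission of each array in turn. With 1 array left in a genotype, it is assumed to vary like the other genotype's.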

Additional observations from a re-analysis of the deposited data

How the results depend on the processing

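The count of 0 among the 9 transporters held in every setting listed under processing (6 of the 9 tested with the 50th percentile filter), with lowest adjusted p from 0.0643 to 0.561. Of 126 differences recomputed for the 10 genes, 121 kept their sign, and none of the 126 passed the threshold. The 5 that turned were SWEET2 at -0.18 (without ago4-1 replicate 1) and -0.05 (without wild type replicate 2), and SWEET7 at 0.0048 (arrays centred on their medians), 0.07 (without ago4-1 replicate 2) and 0.15 (without wild type replicate 1). The filters, no variance trend, robust moderation and the replicate block leave each difference unchanged, so no sign could turn in them. With 1 array left out SWEET2 ran from -0.18 to 0.28 and SWEET7 from -0.25 to 0.15. The cause was not tested. The count over all probe sets, 140, was 647 with the 30th percentile filter and 501 with the 50th (fewer tested, 15922 and 11373), 310 with a constant of 1, 85 with 64, and 228 with robust moderation. It was 0 with no variance trend (2993 at an unadjusted p under 0.05) and between 0 and 4 with any 1 array left out (2148 to 4106 at an unadjusted p under 0.05). Of the listed sugar genes, clade III among them, 0 passed in the main fit, where SWEET9 had the lowest limma adjusted p, 0.0678. With the 30th percentile filter 1 passed (lowest limma adjusted p 0.01). The count was also 1 with centred arrays (0.0491), with a constant of 1 (0.0487) and with robust moderation (0.0364). Which gene passed in these settings is not given here, and these changes were not traced to a cause. Deviations of same-numbered arrays correlated at r = 0.07 across probe sets, so the numbers were not taken to pair samples; with the replicate number as a block, 947 probe sets, 2 sugar list genes and 0 transporters passed.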
